A study of Mus musculus with 9 samples.

Results

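The 9 genes described here encode the enzymes of serine synthesis and of the folate pathway that moves carbon units from serine: Phgdh, Psat1 and Psph (serine synthesis), Shmt1 and Mthfd1 (cytosolic folate enzymes) and Shmt2, Mthfd2, Mthfd1l and Aldh1l2 (mitochondrial folate enzymes). They were chosen by gene name, and 9 of 9 were among the 10762 genes of the deposited expression table. The table holds messenger RNA levels, measured by sequencing, of 9 libraries from B16.SIY, a C57BL/6 mouse melanoma line made to express the model antigen SIY fused with dsRED, a red fluorescent protein. Each group had 3 libraries, numbered 0, 1 and 2 in the sample titles. The groups were cells with Decr2 shRNA1, cells with Decr2 shRNA2, and cells with a control shRNA. All 3 were lentivirus-infected stable lines selected with puromycin, so that the control cells also carried a hairpin, and the labels do not give the number of infections behind a line. Decr2 encodes the peroxisomal dienoyl-CoA reductase of polyunsaturated fatty acid oxidation, and the study asked how mRNA levels differ once it is knocked down.

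Serine is made from the glycolytic intermediate phosphoglycerate by PHGDH, PSAT1 and PSPH in turn. The hydroxymethyltransferases SHMT1 (cytosol) and SHMT2 (mitochondrion) then split serine into glycine and a carbon unit that tetrahydrofolate carries. In mitochondria MTHFD2 oxidises that unit, MTHFD1L releases it as formate and ALDH1L2 oxidises it to CO2, while MTHFD1 carries out the corresponding interconversions in the cytosol, where the units feed purine and thymidylate synthesis. Tumour cells are known to use this pathway for growth, and several of its genes are known targets of the stress transcription factor ATF4.

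Decr2 itself was lower in both knockdowns, at 47.6% of control with Decr2 shRNA1 (95% CI 33.4% to 68.0%) and at 15.04% of control with Decr2 shRNA2 (95% CI 10.5% to 21.5%; limma adjusted p = 0.0195 and 0.000568). The first of these calls was lost without control library 1, control library 2 or shRNA1 library 1, where the adjusted p lay between 0.0537 and 0.0872. The values are log2 levels scaled to a common total, whose powers of 2 summed to 969465 to 1045849 per library, so the sequencing depth of a library is unknown. The total does not show whether the levels are corrected for gene length, so differences between genes may depend on length. The libraries numbered 0 stood apart. For these enzymes, library 0 lay below the mean of libraries 1 and 2 in 25 of 27 comparisons of a gene in a group. The gap was up to 1.06 on the log2 scale, for Mthfd2 with Decr2 shRNA1. Such a count was not made for all genes. Over all genes, deviations from the group means correlated at 0.39 to 0.64 between libraries numbered 0, so the deviation was not confined to these enzymes. For Dct, a melanocyte marker, library 0 was the highest of each group. No label says what the number stands for. Of the melanocyte markers, 7 of 7 were measured, with log2 differences over both hairpins of -0.47 (Mlana) to -0.04 (Tyr) and a median of -0.24; none was called, and 1, Sox10, was lower with the replicate number as a block in the fit (adjusted p = 0.297, and 0.0449 with the block). Of the 21 markers of leukocytes, endothelial cells, fibroblasts and epithelial cells, 1 was in the table (Col1a1, with 0.97 to 1.59 with Decr2 shRNA1, 0.42 to 1.31 with Decr2 shRNA2 and -1.33 to 1.14 in control on the log2 scale). The log2 difference of Col1a1 over both hairpins was 1.45 (SE 0.53, adjusted p = 0.0881, and 0.0175 with the block). The part of these marker differences in the results was not tested.

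The genes lie on 7 chromosomes, with Shmt2, Mthfd1l and Aldh1l2 all on chromosome 10 (GRCm38, GENCODE M21). Promoter windows of 250 bases before to 50 bases after the start of transcription were taken from RefSeq for 8 of the 9 genes, Aldh1l2 being named only. The windows of 4 genes are shown, 5′ to 3′ on the gene's strand, since 2 of them (Psph and Mthfd2) belong to genes that rose in the knockdowns, Shmt2 to a mitochondrial enzyme that was higher in each knockdown library than in the control library of the same number, and Mthfd1 to a cytosolic enzyme that was lower. They are Psph at chr5:129787204-129787503 (minus strand), Mthfd2 at chr6:83317555-83317854 (minus strand), Shmt2 at chr10:127522395-127522694 (minus strand) and Mthfd1 at chr12:76254982-76255281 (plus strand), all in GRCm38.p6. Capitals mark CCAAT boxes (CCAAT, or ATTGG on the other strand) in Psph, Mthfd2 and Mthfd1, and, in Shmt2, the motif of nuclear respiratory factor 1 (NRF1), whose letters read the same on both strands.
Psph: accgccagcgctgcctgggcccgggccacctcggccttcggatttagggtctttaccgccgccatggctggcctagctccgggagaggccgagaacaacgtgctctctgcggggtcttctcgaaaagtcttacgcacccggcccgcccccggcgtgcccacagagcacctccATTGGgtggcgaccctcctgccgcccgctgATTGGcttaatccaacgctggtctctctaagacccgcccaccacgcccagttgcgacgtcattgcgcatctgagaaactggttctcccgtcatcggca
Mthfd2: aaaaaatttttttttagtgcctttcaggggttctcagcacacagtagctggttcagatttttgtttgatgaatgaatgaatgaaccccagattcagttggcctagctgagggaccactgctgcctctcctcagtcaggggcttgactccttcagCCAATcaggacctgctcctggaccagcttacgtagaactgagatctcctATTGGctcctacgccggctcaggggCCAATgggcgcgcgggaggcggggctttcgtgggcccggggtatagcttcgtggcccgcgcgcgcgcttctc
Shmt2: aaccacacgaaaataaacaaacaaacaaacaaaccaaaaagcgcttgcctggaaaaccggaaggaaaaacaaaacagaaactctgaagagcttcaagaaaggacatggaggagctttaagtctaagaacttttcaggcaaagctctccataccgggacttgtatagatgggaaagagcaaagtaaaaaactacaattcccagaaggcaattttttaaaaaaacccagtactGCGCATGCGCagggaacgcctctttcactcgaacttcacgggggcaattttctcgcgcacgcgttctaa
Mthfd1: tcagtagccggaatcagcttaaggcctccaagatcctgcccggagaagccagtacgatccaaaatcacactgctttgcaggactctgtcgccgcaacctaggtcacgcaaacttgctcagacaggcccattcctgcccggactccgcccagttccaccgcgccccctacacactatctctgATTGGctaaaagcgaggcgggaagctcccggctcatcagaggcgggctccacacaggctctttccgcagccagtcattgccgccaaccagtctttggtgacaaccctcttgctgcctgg

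A CCAAT box stood in a window of 6 of the 8 genes, against 37.4% of the 32851 RefSeq promoters of the same length. The 8 genes have 9 windows, since Psat1 has a further window, which holds no CCAAT box. A gene was counted if any of its windows matched, while the share of all promoters is per window. The genes with a CCAAT box were Phgdh, Psat1, Psph and Mthfd2, but also Shmt1 and Mthfd1. The box was thus found in enzymes whose levels were higher and in enzymes whose levels were lower with the Decr2 hairpins. The closest CCAAT box of Mthfd2 began 22 bases before the start and that of Mthfd1 69 bases before it. The NRF1 motif was in 1 of the 8 (Shmt2, 19 bases before the start) and in 0.971% of all promoters. The composite element CARE (TGATGNAA, read on both strands), bound by ATF4 with C/EBP partners, was in the windows of 0 of the 8 genes and in 3.97% of all promoters. The CRE (TGACGTCA) and the E-box (CACGTG), both palindromes, were likewise in 0 of the 8, against 1.79% and 7.15% of all promoters. The CCAAT and NRF1 motifs were added after the sequences had been seen, no motif overlapped another, and a match or its absence describes the letters of these windows.

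**Figure D1:**
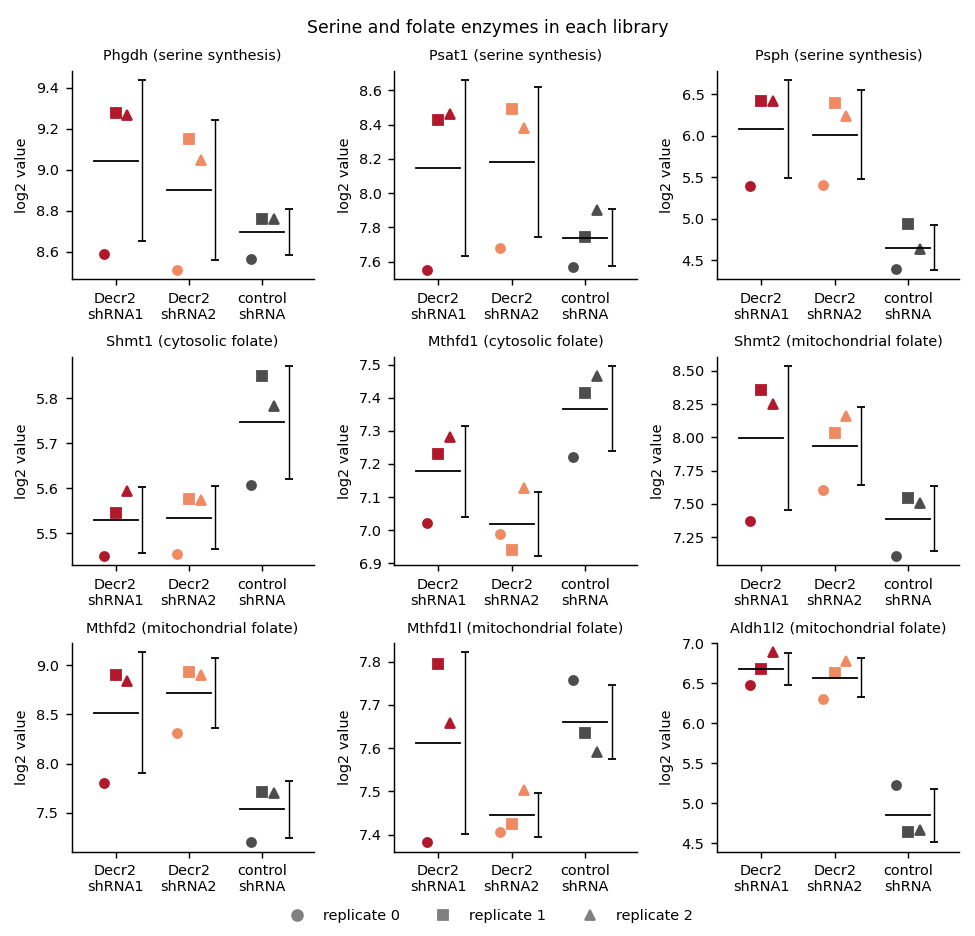
Log2 level (vertical axis, scaled per library to a common total) of each enzyme in the 3 libraries with Decr2 shRNA1, the 3 with Decr2 shRNA2 and the 3 with the control hairpin. Shapes are replicate numbers, horizontal lines group means and bars ± 1 SD; for Aldh1l2, Psph and Mthfd2 the 6 knockdown libraries all lie above the 3 control libraries, and for Shmt1 all lie below them.

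Averaged over both hairpins, 3 of the 9 enzymes rose and none fell at an adjusted p under 0.05 (limma, Benjamini-Hochberg over all genes), against a background of 17.6% of all genes called, with 9.69% higher and 7.89% lower. The 3 were Aldh1l2 (3.42-fold, 95% CI 2.67 to 4.39), Psph (2.62-fold, 95% CI 1.69 to 4.06) and Mthfd2 (2.11-fold, 95% CI 1.42 to 3.15). The median log2 difference of the 9 was 0.43, against -0.00057 over all genes. With the replicate number as a block, which takes libraries of the same number as paired, 6 of the 9 rose and 2 fell. No label gives that pairing. With the block 30.3% of all genes were called, 16.2% higher and 14.1% lower. The 2 that fell were the cytosolic enzymes Mthfd1 and Shmt1, and the 1 that was not called was Mthfd1l. The 6 knockdown libraries lay wholly above the 3 control libraries for 3 of the enzymes and wholly below them for 1, and 22.9% of all genes had no such overlap, 12% above and 10.9% below. In these bulk libraries fewer cells with a transcript and less RNA per cell cannot be told apart.

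**Figure D2:**
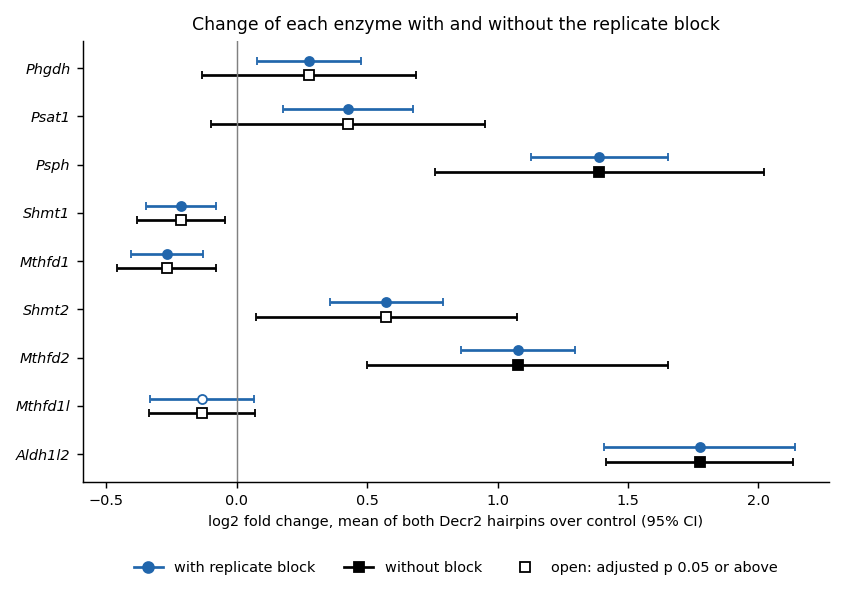
Log2 fold change (horizontal axis) of the mean of both Decr2 hairpins over control for each enzyme, with 95% confidence intervals from limma, with the replicate block (circles) and without it (squares). Open symbols mark an adjusted p of 0.05 or above: without the block 3 enzymes pass, and with it 8, all but Mthfd1l.

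Among the serine synthesis enzymes, Psph, the phosphatase of the last step, rose. Its log2 level in libraries 0, 1 and 2 was 5.40, 6.42 and 6.42 with Decr2 shRNA1, 5.41, 6.39 and 6.24 with Decr2 shRNA2 and 4.40, 4.93 and 4.63 in control. All 6 knockdown libraries lay above the 3 controls, the ranges of the hairpins overlapped, and library 0 was the lowest in each group. The log2 fold change was 1.42 with Decr2 shRNA1 (SE 0.32, adjusted p = 0.0240) and 1.36 with Decr2 shRNA2 (SE 0.32, adjusted p = 0.0278). Over both hairpins it was 1.39 (SE 0.28, adjusted p = 0.0111). That call was lost without control library 2 (adjusted p = 0.0549). The call of the first hairpin alone was lost without any 1 control library or shRNA1 library 1 or 2 (adjusted p 0.0611 to 0.0853), and that of the second without any 1 control library or shRNA2 library 1 or 2 (adjusted p 0.0650 to 0.103).

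Phgdh, the dehydrogenase that commits phosphoglycerate to serine, and Psat1, the transaminase that takes its nitrogen from glutamate, did not pass without the block. Phgdh had log2 levels of 8.59, 9.28 and 9.27 with Decr2 shRNA1, 8.51, 9.15 and 9.05 with Decr2 shRNA2 and 8.57, 8.76 and 8.76 in control libraries 0, 1 and 2. Psat1 had 7.55, 8.42 and 8.46 with Decr2 shRNA1, 7.68, 8.49 and 8.38 with Decr2 shRNA2 and 7.57, 7.75 and 7.90 in control. For both genes, knockdown libraries 1 and 2 lay above all 3 control libraries, while each knockdown library 0 lay among or below the controls. Over both hairpins the log2 fold change of Phgdh was 0.28 (SE 0.18, adjusted p = 0.321, and 0.0421 with the replicate block). With the block Phgdh passed with Decr2 shRNA1 (log2 fold change 0.35, adjusted p = 0.0368) and not with Decr2 shRNA2 (0.21, adjusted p = 0.169). The log2 fold change of Psat1 over both hairpins was 0.43 (SE 0.23, adjusted p = 0.236, and 0.0199 with the block). Psat1 also passed without shRNA1 library 0 (adjusted p = 0.0402). The share of called genes behind these counts was 12.4% for Decr2 shRNA1 alone, where 2 of the 9 enzymes were called, and 12.9% for Decr2 shRNA2 alone, where 4 were. With the block the counts were 7 with Decr2 shRNA1 and 6 with Decr2 shRNA2, against 24.6% and 24% of all genes.

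The cytosolic enzymes were lower, by little, in the knockdown cells. Shmt1, the cytosolic serine hydroxymethyltransferase, had log2 levels of 5.45, 5.55 and 5.59 with Decr2 shRNA1, 5.45, 5.58 and 5.57 with Decr2 shRNA2 and 5.61, 5.85 and 5.78 in control. The highest knockdown library lay just under the lowest control library. The log2 fold change over both hairpins was -0.21 (SE 0.07, adjusted p = 0.0780, and 0.0250 with the replicate block), and it passed without control library 0 (adjusted p = 0.0450). Mthfd1, which joins the dehydrogenase, cyclohydrolase and formyltetrahydrofolate synthetase activities in a single protein, had 7.02, 7.23 and 7.28 with Decr2 shRNA1, 6.99, 6.94 and 7.13 with Decr2 shRNA2 and 7.22, 7.41 and 7.46 in control. With Decr2 shRNA2 all 3 libraries lay below the control range, and with Decr2 shRNA1 the ranges overlapped. Mthfd1 fell by 0.35 on the log2 scale with Decr2 shRNA2 (SE 0.10, adjusted p = 0.0478). The authors' deposited table gives an adjusted p of 0.04998 for this gene and hairpin. Leaving out control library 1 or 2, shRNA1 library 1 or 2 or any 1 shRNA2 library ended the call (adjusted p 0.0617 to 0.171), as did a fit with no intensity trend (adjusted p = 0.0633) and quantile normalization (adjusted p = 0.0569). With Decr2 shRNA1 the log2 difference was -0.19 (SE 0.10, adjusted p = 0.240). Over both hairpins it was -0.27 (SE 0.08, adjusted p = 0.0575, and 0.0117 with the block), and Mthfd1 passed there without control library 0 (adjusted p = 0.0427), without shRNA1 library 0 (adjusted p = 0.0482) or with libraries centred on their medians (adjusted p = 0.0434).

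Of the mitochondrial enzymes, Aldh1l2 had the largest difference among the 9. ALDH1L2 oxidises formyltetrahydrofolate to CO2 and yields NADPH. Its log2 level was 6.48, 6.68 and 6.89 with Decr2 shRNA1, 6.30, 6.63 and 6.78 with Decr2 shRNA2 and 5.24, 4.65 and 4.67 in control libraries 0, 1 and 2. The lowest knockdown library exceeded the highest control library by more than the range of any group, and control library 0, unlike the controls of the serine enzymes, was the highest control. The log2 fold change was 1.83 with Decr2 shRNA1 (SE 0.18, adjusted p = 0.00136) and 1.72 with Decr2 shRNA2 (SE 0.18, adjusted p = 0.00183). The call held without each of the 9 libraries in turn, where the log2 fold change over both hairpins lay between 1.67 and 1.97.

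Mthfd2, the NAD-dependent methylenetetrahydrofolate dehydrogenase and cyclohydrolase, had log2 levels of 7.81, 8.90 and 8.84 with Decr2 shRNA1, 8.31, 8.93 and 8.90 with Decr2 shRNA2 and 7.203, 7.71 and 7.70 in control. Every knockdown library lay above every control library, shRNA1 library 0 by the least. The log2 fold change was 0.98 with Decr2 shRNA1 (SE 0.30, adjusted p = 0.0611, and 0.00109 with the replicate block). With Decr2 shRNA2 it was 1.18 (SE 0.30, adjusted p = 0.0331), and over both 1.08 (SE 0.26, adjusted p = 0.0209). The call over both was lost without control library 0, 1 or 2 (adjusted p = 0.0759, 0.0669 and 0.0648), that of Decr2 shRNA2 without any 1 control library or shRNA2 library 1 or 2 (adjusted p 0.0830 to 0.114), and Decr2 shRNA1 passed without its own library 0 (adjusted p = 0.00619).

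Shmt2, the mitochondrial hydroxymethyltransferase whose promoter carries the NRF1 motif shown above, had log2 levels of 7.37, 8.36 and 8.25 with Decr2 shRNA1, 7.60, 8.03 and 8.16 with Decr2 shRNA2 and 7.11, 7.55 and 7.51 in control. The shRNA2 libraries all lay above the controls, and shRNA1 library 0 lay within the control range. Its log2 fold change over both hairpins was 0.57 (SE 0.22, adjusted p = 0.106, and 0.00349 with the replicate block), and it passed without shRNA1 library 0 (adjusted p = 0.00843). Mthfd1l, the mitochondrial formyltetrahydrofolate synthetase that yields formate, passed neither with nor without the block. It had 7.38, 7.79 and 7.66 with Decr2 shRNA1, 7.41, 7.42 and 7.503 with Decr2 shRNA2 and 7.76, 7.64 and 7.59 in control. The shRNA1 libraries spanned the whole control range, and the shRNA2 libraries lay below it. The log2 difference over both hairpins was -0.13 (95% CI -0.34 to 0.07, adjusted p = 0.340, and 0.284 with the block).

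**Figure D3:**
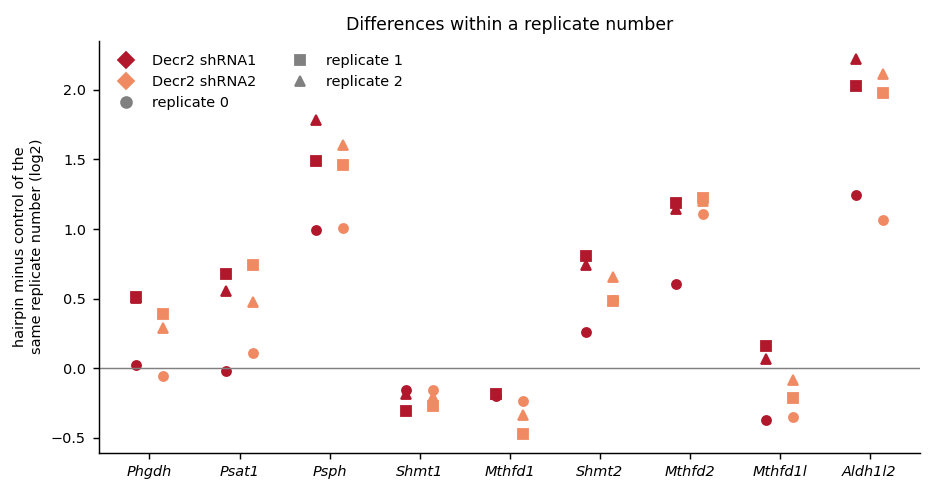
Difference in log2 level (vertical axis) between each knockdown library and the control library of the same replicate number, for each enzyme. Colours are the 2 hairpins and shapes the replicate numbers; 6 of 6 differences are above 0 for Psph, Shmt2, Mthfd2 and Aldh1l2, and 6 of 6 are below 0 for Shmt1 and Mthfd1.

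Compared within a replicate number, the direction was the same in all 6 pairs for 6 of the 9 enzymes. Each control library enters the pairs of both hairpins, so the 6 pairs are not independent. The share of all genes with the same direction in all 6 pairs was not computed. It cannot be below 22.9%, the share of all genes whose knockdown libraries did not overlap the control libraries. Psph was higher by 0.997 to 1.78, Mthfd2 by 0.60 to 1.22, Aldh1l2 by 1.06 to 2.22 and Shmt2 by 0.26 to 0.81 on the log2 scale. Shmt1 differed by -0.30 to -0.15 and Mthfd1 by -0.47 to -0.18. Phgdh and Psat1 were higher in 5 of 6 pairs, with differences that averaged -0.01 and 0.05 in replicate 0, 0.45 and 0.71 in replicate 1 and 0.40 and 0.52 in replicate 2. For Aldh1l2 the averages were 1.15, 2.01 and 2.16 in replicates 0, 1 and 2, and for Psph 1.002, 1.47 and 1.69. The difference between replicate 0 and the others in these effects was not tested. Without the 3 libraries numbered 0, 8 of the 9 enzymes were called over both hairpins, with 41.4% of all genes called. The count was 7 with Decr2 shRNA1 (34.5% of all genes) and 8 with Decr2 shRNA2 (37.3% of all genes).

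The balance between compartments was compared within each library as the log2 level of a mitochondrial enzyme minus that of its cytosolic counterpart. The offset of such a difference may depend on the lengths of the 2 genes, so it was only compared between groups. Shmt2 minus Shmt1 was 1.92, 2.81 and 2.66 with Decr2 shRNA1, 2.15, 2.46 and 2.59 with Decr2 shRNA2 and 1.501, 1.70 and 1.73 in control. Mthfd2 minus Mthfd1 was 0.78, 1.67 and 1.56 with Decr2 shRNA1, 1.32, 1.99 and 1.78 with Decr2 shRNA2 and -0.02, 0.30 and 0.24 in control. For both, the 6 knockdown libraries lay above the 3 controls. Taken singly, Shmt1 already lay wholly below the controls in the knockdown libraries and Mthfd2 wholly above them. These ratios thus largely restate differences of single genes and are no separate evidence of a shift between compartments. The share of other gene pairs without overlap was not computed. Shmt2 minus Shmt1 averaged 2.43 ± 0.34 (SD, n = 6) in knockdown libraries and 1.64 ± 0.12 (SD, n = 3) in control libraries, a difference of 0.79 (two-sided exact permutation test, p = 0.0238, adjusted over 3 ratios 0.0357). Mthfd2 minus Mthfd1 averaged 1.52 ± 0.42 (SD, n = 6) in knockdown libraries and 0.17 ± 0.17 (SD, n = 3) in control libraries, a difference of 1.35 (two-sided exact permutation test, p = 0.0238, adjusted 0.0357). The p of 0.0238 is the smallest that the 84 arrangements of these libraries can give. Mthfd1l minus Mthfd1 averaged 0.43 ± 0.08 (SD, n = 6) in knockdown libraries and 0.29 ± 0.21 (SD, n = 3) in control libraries, with overlapping ranges (two-sided exact permutation test, p = 0.214). The overlap rested on control library 0, as the controls had 0.54, 0.22 and 0.13 and the knockdown libraries 0.36 to 0.56. Without control library 0 the difference was 0.26 (exact permutation test, p = 0.0714, the smallest that design can give). Permuted within replicate numbers, the first 2 ratios have an adjusted p of 0.111, in a design whose smallest unadjusted p is 0.0741.

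**Figure D4:**
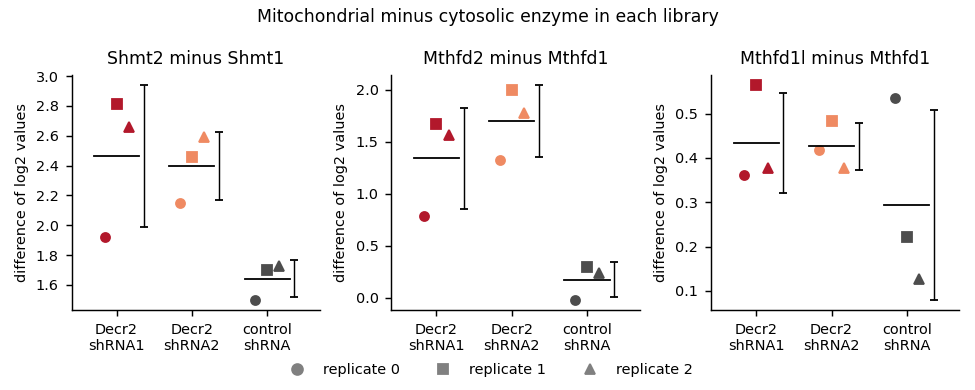
Difference between the log2 levels of a mitochondrial and a cytosolic enzyme (vertical axis) in each library, for 3 pairs. Shapes are replicate numbers, lines group means and bars ± 1 SD; for Shmt2 minus Shmt1 and Mthfd2 minus Mthfd1 the 6 knockdown libraries lie above the 3 controls, and for Mthfd1l minus Mthfd1 the ranges overlap.

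The enzymes were also compared directly between the hairpins. Decr2 itself was lower with Decr2 shRNA2 than with Decr2 shRNA1 (log2 difference -1.66, SE 0.23, adjusted p = 0.0233). That call held without control library 0 or shRNA1 library 0 and was lost without any 1 of the other 7 libraries (adjusted p 0.0516 to 0.137), and in a fit of only these 2 groups (adjusted p = 0.116). None of the 9 differed between Decr2 shRNA2 and Decr2 shRNA1 (adjusted p 0.686 to 0.993), where 0.455% of all genes were called, and 0 of the 9 were called with the block, where 1.87% of all genes were. At an unadjusted limma threshold of 0.05, 0 of the 9 passed without the block and 1, Mthfd1, with it. The share of all genes passing that unadjusted threshold was not computed, so these counts cannot be set against a background. The interval of the log2 difference was widest for Psph (-0.79 to 0.66) and narrowest for Shmt1 (-0.19 to 0.20). Differences within these bounds thus remain possible. Without the libraries numbered 0, Mthfd1l was lower with Decr2 shRNA2 than with Decr2 shRNA1 (log2 difference -0.26, adjusted p = 0.0355), the 1 enzyme called there, with 8.87% of all genes.

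Across the 9 libraries, the 6 enzymes whose mean was higher in the knockdowns (Phgdh, Psat1, Psph, Shmt2, Mthfd2 and Aldh1l2) had pairwise Pearson r of 0.54 to 0.97 over 15 pairs of genes. With the mean of each replicate number removed, a measure added after the data had been seen, the range was 0.77 to 0.997. The 6 were grouped by their direction in these same libraries, which by itself favours a positive r. These points share the group differences and the replicate numbers, and r is given as a description. The genes whose levels followed Mthfd2 most closely were Map2k4 (r = 0.991), Clic4 (r = 0.991), Slc1a4 (r = 0.989), Asns (r = 0.988) and Atf4 (r = 0.985). Those closest to Phgdh were Hmgn3 (r = 0.983), Xpot (r = 0.976), Spg20 (r = 0.970), Slc35f1 (r = 0.968) and Cyp20a1 (r = 0.966). Those closest to Mthfd1 were St13 (r = 0.976), Samhd1 (r = 0.965), Dhx8 (r = 0.959), Larp7 (r = 0.957) and Uck2 (r = 0.956).

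The genes around the pathway moved in both directions. Of 69 listed genes, 54 were measured, and over both hairpins 9 rose and 7 fell (29.6% called, against 17.6% of all genes). Their median log2 difference was 0.02. With the replicate block 15 rose and 12 fell (50% called, against 30.3% of all genes). The lists were chosen with earlier results of these data known, so these counts are a description, and the genes named below for their value with the block were picked after it had been seen.

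Of the 6 measured genes of folate uptake, reduction and storage, 1 fell and none rose. Slc25a32, the mitochondrial folate carrier, fell by 0.27 (SE 0.07, adjusted p = 0.0363) on the log2 scale. With the replicate block 2 fell, Fpgs, which adds glutamates to folate, being the other (log2 difference -0.34, adjusted p = 0.0755, and 0.00772 with the block). Of 6 other folate enzymes, 3 fell and none rose. The enzymes that use folate carbon units for thymidylate and purines fell, Tyms by 0.49 (SE 0.06, adjusted p = 0.00235), Gart by 0.42 (SE 0.07, adjusted p = 0.00493) and Atic by 0.44 (SE 0.07, adjusted p = 0.00348). Aldh1l1, the cytosolic counterpart of Aldh1l2, passed with the block in the higher direction (log2 difference 0.58, adjusted p = 0.0537, and 0.00309 with the block). In the glycine cleavage system, Gcsh, its lipoyl carrier protein, fell by 0.32 (SE 0.08, adjusted p = 0.0202), and the other measured gene did not pass.

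Of 8 measured genes of the methionine cycle and transsulfuration, 1 rose and 1 fell. Cth, the cystathionine lyase that yields cysteine, rose by 1.94 (SE 0.30, adjusted p = 0.00448), with log2 levels of 4.33, 5.44 and 5.38 with Decr2 shRNA1, 4.35, 5.53 and 5.40 with Decr2 shRNA2 and 2.996, 3.23 and 3.18 in control. Library 0 was again the lowest of each group, and all 6 knockdown libraries lay above the 3 controls. Ahcy, which hydrolyses adenosylhomocysteine, fell by 0.26 (SE 0.07, adjusted p = 0.0261). With the block a second gene rose, Ahcyl1, a relative of Ahcy (log2 difference 0.20, adjusted p = 0.0599, and 0.0203 with the block).

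Of 9 serine and glycine carriers, 2 rose and none fell: Slc1a4, a neutral amino acid carrier that takes serine, by 1.44 (SE 0.34, adjusted p = 0.0205), and Slc1a5, a glutamine carrier, by 0.88 (SE 0.09, adjusted p = 0.000666). With the block 4 rose, with the glycine carrier Slc6a9 (log2 difference 0.89, adjusted p = 0.0559, and 0.0329 with the block) and the sideroflexin Sfxn3 (0.29, adjusted p = 0.0699, and 0.0105 with the block). Of 8 serine-consuming enzymes, Srr, the serine racemase, rose by 0.78 (SE 0.12, adjusted p = 0.00357) and Sars, the cytosolic seryl-tRNA synthetase, by 0.55 (SE 0.16, adjusted p = 0.0388). Sptlc1, a subunit of serine palmitoyltransferase, fell by 0.33 (SE 0.08, adjusted p = 0.0191), and with the block so did Ptdss1, a phosphatidylserine synthase (log2 difference -0.27, adjusted p = 0.0812, and 0.0244 with the block). None of the 7 measured glycolytic genes around phosphoglycerate passed, the lowest adjusted p being that of Eno2, a neuronal enolase (log2 difference 0.64, SE 0.23, adjusted p = 0.0855, and 0.00383 with the block). With the block 1 was called higher and 2 lower, the mutase Pgam1 (log2 difference -0.24, adjusted p = 0.183, and 0.0342 with the block) and the enolase Eno1 (-0.29, adjusted p = 0.163, and 0.0395 with the block).

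Of 8 transcription factors tied to the pathway, 4 rose and none fell. Atf4 rose by 1.15 (SE 0.19, adjusted p = 0.00543), and its log2 level was 8.38, 9.13 and 9.20 with Decr2 shRNA1, 8.76, 9.24 and 9.18 with Decr2 shRNA2 and 7.58, 7.94 and 7.96 in control. As for Mthfd2, all 6 knockdown libraries lay above the 3 controls and library 0 was the lowest of each group. Ddit3, which encodes CHOP, rose by 1.33 (SE 0.09, adjusted p = 0.000166), Atf5, a relative of Atf4, by 1.79 (SE 0.39, adjusted p = 0.0151), and Cebpg, a dimer partner of ATF4, by 0.75 (SE 0.18, adjusted p = 0.0220). The average of Ddit3 joins unlike values, 0.92 with Decr2 shRNA1 and 1.75 with Decr2 shRNA2 (SE 0.10 each). Its log2 difference between the hairpins was 0.83 (limma adjusted p = 0.0167). With the block 5 rose and 1 fell, with Cebpb higher (log2 difference 0.47, adjusted p = 0.198, and 0.0367 with the block) and Myc lower (-0.19, adjusted p = 0.0658, and 0.0240 with the block). Of the 16 genes called over both hairpins on these lists, Slc25a32, Slc1a4, Sars and Cebpg were not called with Decr2 shRNA1 alone (limma adjusted p 0.0715 to 0.177). Gcsh and Ahcy were not called with Decr2 shRNA2 alone (limma adjusted p = 0.0698 and 0.0720). Fpgs passed with Decr2 shRNA2 alone (adjusted p = 0.0450) and Ptdss1 with Decr2 shRNA1 alone (adjusted p = 0.0428). Of the 16 calls on these lists, 8 held without each library in turn (Tyms, Gart, Atic, Cth, Slc1a5, Srr, Atf4 and Ddit3). The other 8 were lost at least once, each of them without control library 1 and without control library 2, with a highest adjusted p of 0.150 for Slc25a32, 0.108 for Gcsh, 0.134 for Ahcy, 0.0749 for Slc1a4, 0.0999 for Sptlc1, 0.128 for Sars, 0.0659 for Atf5 and 0.0790 for Cebpg.

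**Figure D5:**
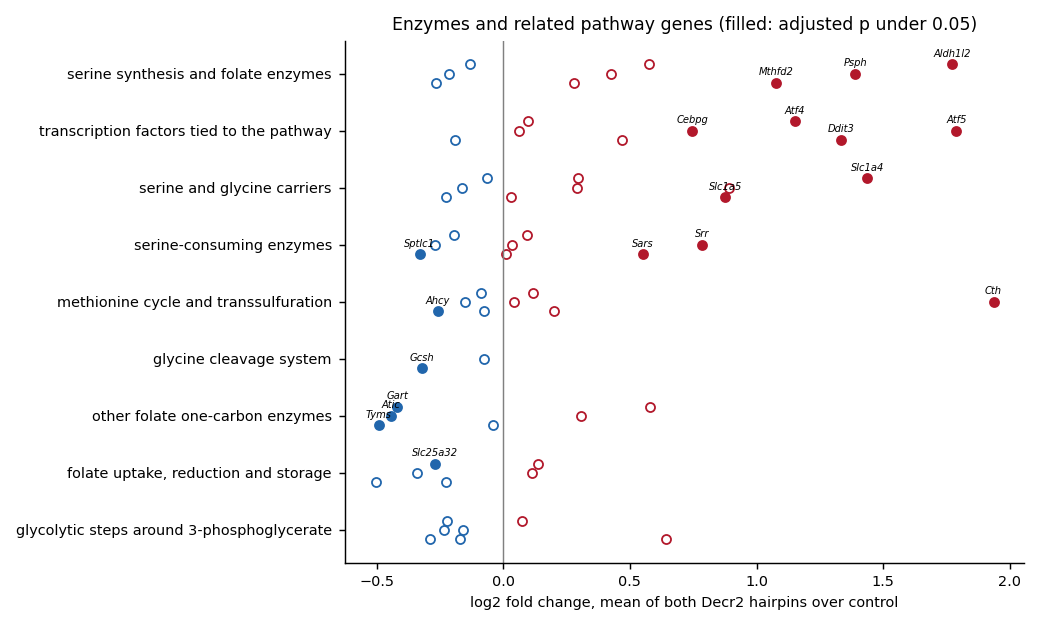
Log2 fold change (horizontal axis) of the mean of both Decr2 hairpins over control for the 9 enzymes and for 54 measured genes of related lists, 1 point per gene. Filled points have an adjusted p under 0.05 and are named; 9 of the related genes lie to the right of 0 and 7 to the left among the filled points.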

How the data were processed

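Messenger RNA was measured in 9 libraries, 3 per group, and groups and replicate numbers were read from the sample titles. The log2 values analysed are those deposited by the authors, 1 per gene and library; from the values, they are scaled per library to a common total. kallisto, FastQC and limma are named in the submitters' processing notes; versions, annotation, genome build and strand setting were not given in the sources used here. Each column's hairpin was read from the authors' headed log2 fold changes, which differed by no more than 0.05 from those of the assigned columns for 99.95% (Decr2 shRNA1) and 99.7% (Decr2 shRNA2) of genes. The authors' deposited p-values were used only where named. The series title speaks of tumors and the sample labels of a cultured line. Of the 10762 gene identifiers, 10759 matched a symbol in the reference.

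limma 3.58.1 in R 4.3.3 was fitted to all 10762 genes and 9 libraries (6 residual degrees of freedom, intensity trend, Benjamini-Hochberg adjustment, called under 0.05). The code was also run on simulated data with independent noise in each library. That setting lacks the deviations shared by libraries numbered 0, so it does not check the fit under them. No label says that libraries came from separate cultures, so p-values cover just the library-to-library spread, which may be technical. Depth is unknown, so no counting interval is given. Deviations from the group means correlated at 0.13 to 0.64 in 9 of 9 pairs of libraries with the same number. In 18 pairs with different numbers the correlation was -0.63 to 0.53. Pairs of a library 1 with a library 2 were positive too, from 0.13 to 0.53. The correlations thus set library 0 apart and do not show that libraries 1 and 2 are paired by number. The numbers were taken to pair the libraries as an assumption. The fit with the replicate block is printed beside reported calls over both hairpins that it changes. Ratios were compared by exact permutation over libraries. Alternatives were the replicate block, only the groups compared, no trend, median centring, quantile normalization, removal of the lowest 25% of genes, and leaving out each library or the libraries numbered 0.

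The enzymes and lists were chosen with earlier results of these data known, and 2 genes of the related lists are not reported here. Named genes were the 9 enzymes, the 5 genes with the highest r for each of Phgdh, Mthfd2 and Mthfd1 among genes above the median level, up to 4 called genes per related list (or the gene with the lowest adjusted p), and Decr2.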

Additional observations from a re-analysis of the deposited data

How the results depend on the processing

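With the replicate block the enzymes called were 7 with Decr2 shRNA1, 6 with Decr2 shRNA2, 8 over both hairpins and 0 between hairpins, the related genes called over both were 27 and all genes called 3263, against 1892 without it. Without the libraries numbered 0 these counts were 7, 8, 8, 1, 34 and 4452. Without each library in turn they ranged over 1 to 4, 1 to 5, 1 to 6, 0 to 0, 8 to 22 and 616 to 2642. Shmt2 minus Shmt1 differed by 0.71 to 0.89 without each library and Mthfd2 minus Mthfd1 by 1.25 to 1.49 (exact permutation, adjusted p 0.0536 to 0.107); without the libraries numbered 0 they differed by 0.92 and 1.48 (0.133), with Decr2 shRNA1 alone by 0.82 and 1.17 and with Decr2 shRNA2 alone by 0.76 and 1.52 (0.150 each), and with the replicate block by 0.79 and 1.35 (0.111). Apart from leaving out a hairpin library, these designs cannot reach 0.05. Mthfd1l minus Mthfd1 differed by 0.05 to 0.26 without each library and by 0.28 without the libraries numbered 0.

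Directions turned only for differences that were not called. Between the hairpins, the log2 difference without each library ranged from -0.37 to 0.0539 for Phgdh, -0.26 to 0.29 for Psat1, -0.41 to 0.24 for Psph, -0.0353 to 0.0452 for Shmt1, -0.37 to 0.12 for Shmt2, -0.15 to 0.40 for Mthfd2 and -0.22 to 0.0222 for Aldh1l2, and for Psat1 it was -0.0075 without the libraries numbered 0. Mthfd1l with Decr2 shRNA1 ranged from -0.14 to 0.07 without each library, and was 0.0219 with quantile normalization and 0.11 without the libraries numbered 0; St13 over both hairpins was 0.0325 with quantile normalization. Of the values of single genes under the alternatives, 914 kept their direction and their side of the threshold, 87 lost a call and 54 gained one; quantile normalization ended the call of Ahcy, and a fit with no intensity trend that of Sars. The cause was not tested. The comparison over both hairpins uses all groups, so a fit of only the groups compared gives no other value there. Unknown depth leaves the precision of low values, such as those of Decr2, ungiven.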
